A study of Mus musculus with 90 samples.

Results

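The livers of 41 untreated outbred mice were compared with one another, gene by gene, to show how far normal animals of 1 sex and 1 mouse stock differ in what their livers express. The 41 animals are the vehicle arm of a study of 90 mice, and the other 49 animals, given zileuton at 300 mg/kg, were left out of every value here. Genes were kept where the median normalised count over the 41 animals was at least 50, which held for 10757 of the 18223 genes in the table. For each of these genes the standard deviation (SD) of log2(normalised count + 1) was taken over the animals, so an SD of 1 means that animals typically lay a factor of 2 away from the gene's average.

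All 41 animals were female Diversity Outbred (J:DO) mice, 6 to 20 weeks old, that received sterile distilled water by mouth once a day for 7 days. RNA came from 25 mg of liver, with an integrity number of at least 8. The labels give 29 animals an agouti coat, 6 a black coat and 6 a white coat. Each animal was sequenced once, so the spread holds differences between mice together with dissection, RNA preparation and library making. Animals are named below as vehicle replicates, numbered in accession order.

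Diversity Outbred mice descend from a set of inbred founder strains and are bred so that every animal carries its own mosaic of founder chromosomes. The liver makes most plasma proteins, clears drugs and hormones, and follows the feeding rhythm, the daily clock and pituitary growth hormone. Large liver gene families, among them the major urinary proteins, serpins, sulfotransferases and cytochromes P450, sit as tandem arrays of near-identical copies in the mouse genome.

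Library totals ran from 13064928 to 41360187 estimated counts with a median of 26105475, and the 41 samples are 41 distinct libraries. Albumin, the defining hepatocyte transcript, lay between 1513560 and 3500570 normalised counts in all 41 animals. Vehicle replicate 8 stood apart: its 10 skeletal muscle markers summed to 117626 normalised counts, against at most 29.2 in any other animal. Results that rest on that library are given with and without it. The rest of the report first gives the overall spread, then the most variable genes by the proteins they encode, then pairs of neighbouring genes, gene groups, the least variable genes and the labels.

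Most liver genes differed little between animals. The median SD was 0.25, with quartiles of 0.19 and 0.37, and the 90th percentile animal stood 1.53-fold above the 10th percentile animal for the median gene. An SD of at least 1 was reached by 295 genes, or 2.74%, and an SD of at most 0.2 was found in 3121 genes, or 29%. The gap between the 10th and the 90th percentile animal was 2-fold or more for 2091 genes, 19.4% of those kept. Counting error alone would give a median SD of 0.070, and 1249 genes had an SD under 2 times their own counting error. The spread was widest in low genes, with a median SD of 0.41 for genes with a median between 50 and 100, and 0.22 between 300 and 1000. It was 0.21 between 1000 and 3000 and 0.26 above 3000.

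**Figure D1:**
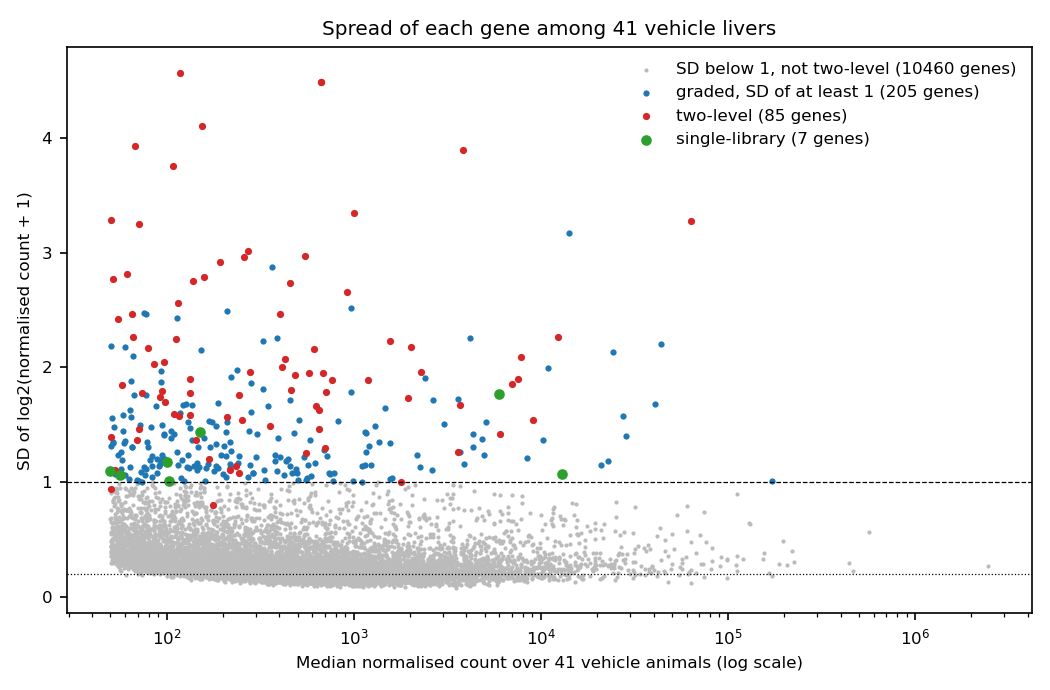
Each point is 1 of 10757 genes, with its median normalised count over 41 vehicle animals on a log axis and the SD of log2(normalised count + 1) on the vertical axis. The dashed line marks an SD of 1 and the dotted line an SD of 0.2. Colours mark 85 two-level, 205 graded and 7 single-library genes, and the highest point is Serpina3c at 4.57.

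The shapes of variation were separated by a rule. A gene was called two-level where its widest gap between neighbouring animals was at least 1 on the log2 scale with at least 3 animals on each side, which 85 genes met, or 0.79%. Of these, 19 were on/off, with the last animal below the gap under 10 normalised counts. In 62 of the 85 genes the low side held fewer animals and in 23 the high side did, and 44 had only 3 to 5 animals on the smaller side. Another 205 genes had an SD of at least 1 with no such gap and are called graded. The SD of such genes depends on how spread is measured: by the median absolute deviation scaled to an SD, Ceacam2 was at 1.61 in place of 3.34, Mup10 at 1.29 in place of 3.28 and C1s2 at 1.27 in place of 2.97. In 7 genes, called single-library, leaving out 1 animal lowered an SD of at least 1 by 33.8% to 66.8%. Just inside and outside the limits lay Rps2 at an SD of 1.00 and Rdh9 at 0.997, and Slc37a1 and Limd2 with gaps of 1.00 and 0.997.

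Serpina3c (chr12:104146382-104153870, GRCm38), a liver serine protease inhibitor of the antichymotrypsin family, had the highest SD of all genes. Its normalised counts ran from 0 to 17125 with a median of 117. The 23 animals below its widest gap reached at most 174 and the 18 above it began at 1696. The SD was 4.57, and 4.47 without the animal that lowers it most. Over the 41 animals its order was most like that of its neighbour Serpina3m (Spearman rho 0.87) and of Serpina11 (rho 0.68). Serpina1e, a copy of alpha-1 antitrypsin, ran from 636 to 148406 with a median of 7570.2 (SD 1.90), and Serpina12 from 20 to 1901 with a median of 282 (SD 1.86). Antithrombin, Serpinc1, stayed between 52849.5 and 78876 with an SD of 0.12. Of the 20 serpins kept, 5 were in the highest 5% of all genes by SD and 1 in the lowest 5%.

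The major urinary proteins are lipocalins made in the liver, secreted into the urine and known as carriers of pheromones. Mup19 (chr4:61778324-61782269) ran from 3.41 to 36253 with a median of 155 (SD 4.10), with 24 animals at or below 312 and 17 at or above 893. Mup18 ran from 3.84 to 52999 with a median of 67.9 (SD 3.93). Mup15 (chr4:61435790-61439743) was listed at 0 in its 3 lowest animals, while the other 38 lay between 119 and 111876 (SD 3.90). The same 3 animals were the low side of Mup10, at 1419 or less against 6576 to 170153 in the other 38 (SD 3.28, or 2.30 without 1 animal). Mup1 was graded, from 8.34 to 186138 with a median of 14179.8 (SD 3.17), as was Mup16, from 0 to 18275 with a median of 365 (SD 2.88). Mup12 and Mup9, also graded, had SDs of 2.52 and 2.20.

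These Mup values are uncertain gene by gene, since the copies are near-identical: 100% of the distinct 31-base words of Mup19, 100% of those of Mup15 and 70.2% of those of Mup1 also occur in another annotated gene. By Spearman correlation over the 41 animals, Mup19 was most like Mup17 (rho 0.71) and Mup12 (0.56), Mup15 was most like Gm21320 (0.78) and Mup10 (0.74), and Mup10 was most like Mup5 (0.80) and Mup1 (0.77). Mup18 had no close partner, its best values being 0.48 with Slc4a4 and 0.47 with Acad9. A total of 14 Mup genes with an SD of at least 1 lay in 2 clusters on chromosome 4, 7 between 59964294 and 60741326 and 7 between 61435790 and 62087342. Chromosome 4 held 38 genes with an SD of at least 1 among 691, or 5.50%, against 1 of 338 on chromosome 16 and 0 of 291 on the X chromosome.

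Major urinary proteins belong to a wider group that differs between the sexes and follows the pattern of growth hormone pulses. Of 37 such genes kept, 33 were among the 5% of genes with the highest SD and none among the lowest 5%, and the group's median SD was 1.55 against 0.25 over all genes. Cyp4a12a, a fatty acid hydroxylase known for its high level in males, ran from 1.78 to 4083 with a median of 61.4 in these females (SD 2.82). Its 8 highest animals began at 433, above the 156 reached by the other 33. Hsd3b5, a steroid reductase of male liver, ran from 3.05 to 1866 with a median of 77.1 (SD 2.47). Slco1a1, an organic anion transporter also high in males, ran from 34.2 to 16364 with a median of 4163 (SD 2.26). Sult2a7, from a family of female-typical sulfotransferases, ran from 0 to 2763 with a median of 271 (SD 3.02), and 7 Sult2a genes of chromosome 7 all had an SD of at least 1. The receptor itself, Ghr, lay between 7790.1 and 13749 with an SD of 0.18, the lowest of the group.

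The second place in SD was held by 2 entries with identical values, Mir692-2 and Mir692-3, annotated as microRNA genes. Their precursor is shown because its sequence bears on what was counted. RefSeq (GRCm38.p6) gives the mature sequence, with the seed (bases 2 to 8) in capitals, and the Mir692-2 hairpin on chr4:125504749-125504857, plus strand, with the mature part in capitals.
mmu-miR-692: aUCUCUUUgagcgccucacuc
Mir692-2 hairpin: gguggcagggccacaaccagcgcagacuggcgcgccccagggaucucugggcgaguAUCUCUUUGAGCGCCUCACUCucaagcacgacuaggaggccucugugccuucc
The 109 bases of the hairpin are identical to a stretch of the ferritin light chain pseudogene Ftl1-ps1 at all 109 positions, and to the Ftl1 transcript at 106 positions. All 79 of its 31-base words occur in Ftl1-ps1 and 34 of them in Ftl1, which encodes the light chain of the iron store ferritin and had a median of 63546 normalised counts in these livers. Normalised counts for both Mir692 entries ran from 0 to 2990.2 with a median of 669. In 19 animals they were 15.7 or less and in 22 they were 550.4 or more (SD 4.49). Apart from each other, the gene most like them was Dhdh (rho 0.80), a dihydrodiol dehydrogenase on chromosome 7. The libraries were made from RNA with a kit for messenger RNA, so the values are not a measure of the mature microRNA.

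Copies of 2 early complement protease genes were low in the same animals. C1s2 (chr6:124624625-124636085) ran from 0 to 2294 with a median of 547, with 7 animals at 8.43 or less and the other 34 at 76.9 or more (SD 2.97). C1rb (chr6:124570294-124581171), 43454 bp away, ran from 0 to 2474 with a median of 192 and had the same 7 animals at 4.17 or less, below 36.2 and more in the rest (SD 2.92). Both have a close relative: 40.4% of the words of C1s2 and 71.4% of those of C1rb occur in other genes, mostly in C1s1 and C1ra. C6, a late complement component, was graded, from 107 to 3414 with a median of 392 (SD 1.39). The list of complement and coagulation genes holds C1s1 and C1ra but not C1s2 and C1rb. Of its 33 genes kept, 3 were in the highest 5%, or up to 6 under other settings, and the median SD was 0.30. Prothrombin, F2, lay between 41681 and 61256 with an SD of 0.13.

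Genes of the major histocompatibility complex, which present peptides to T cells, also fell into levels. H2-Ea-ps (chr17:34341959-34344645), the class II alpha chain gene that is annotated as a pseudogene in the reference strain, was at 2.97 or less in 7 animals and between 84 and 1335 in 34 (SD 2.96). None of its 31-base words occurs in another annotated gene. H2-Eb1, the class II beta chain 25285 bp away, was two-level with 6 low animals, of which 2 were low in both (SD 1.63). H2-Q2, a class I gene, ran from 1.67 to 1899 with a median of 411, with the same 3 low animals as Gm8909, 817681 bp away. Of 29 genes of this group kept, 9 were in the highest 5% and the median SD was 0.65. B2m, the shared light chain of class I molecules, lay between 27428 and 49850.5 (SD 0.24). The low values of H2 genes may be read only as counts, since a gene that is silent, a gene absent from an animal and reads that were not assigned to the reference copy give the same value.

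Several genes with known functions outside the liver's plasma proteins were two-level. Ceacam2 (chr7:25516042-25539857), a cell adhesion molecule, was at 35.8 or less in 13 animals and at 569 to 2859 in 28 (SD 3.34), with 57.1% of its words shared, mostly with Ceacam1. Prom2, a membrane glycoprotein with no shared words, ran from 0 to 492 with a median of 71.5 (SD 3.25). Dct, which makes a melanin precursor in pigment cells, was at 4.17 or less in 5 animals and at 145 to 1980 in the rest (SD 2.74). Camk2b, a calmodulin-dependent kinase subunit, was at 7.27 or less in 8 animals and at 51.2 to 1800.4 in the rest (SD 2.79). Gm13305, which shares 75.6% of its words with other genes, mostly the interleukin 11 receptor gene Il11ra1, ran from 0 to 473 with a median of 108 (SD 3.76). The olfactory receptor gene Olfr1033 ran from 0 to 297 with a median of 50.1 (SD 3.29), and Fam19a2, a secreted protein, from 0 to 469 with a median of 51.7 (SD 2.77).

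Other two-level genes were high in nearly all animals. Cyp4f14, an omega-hydroxylase of fatty acids and leukotrienes, was at 111 or less in 3 animals and at 1545 to 11272 in the other 38 (SD 1.85). B4galnt1, a ganglioside-building enzyme, was at 65.6 or less in 5 animals and at 1159 or more in the rest (SD 1.96), with 19.9% of its words shared with the overlapping gene Slc26a10. The uncharacterised A730017L22Rik was at 3.84 or less in 3 animals and at 94.7 or more in the rest (SD 1.56).

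A pair of housekeeping genes were among the two-level set. Gapdh (chr6:125161715-125166467), the glycolytic enzyme often used as a reference transcript, was at 5.56 to 37.4 in 4 animals and at 1060.2 to 3882 in the other 37 (SD 2.18). Its words occur in 330 other annotated genes, and 28.1% of them are shared, with Gm7336 first. Rpl37, a ribosomal protein, was at 3.58 to 10.1 in 3 animals and at 336 to 1263 in 38 (SD 1.78), with 16.6% of its words shared. Both have many processed copies in the genome, so a low value may not be read as absence of the transcript. Over the 23 common reference genes kept, the median SD was 0.20. Sdha had an SD of 0.15, while Actb had 0.37 and Hprt 0.38.

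**Figure D2:**
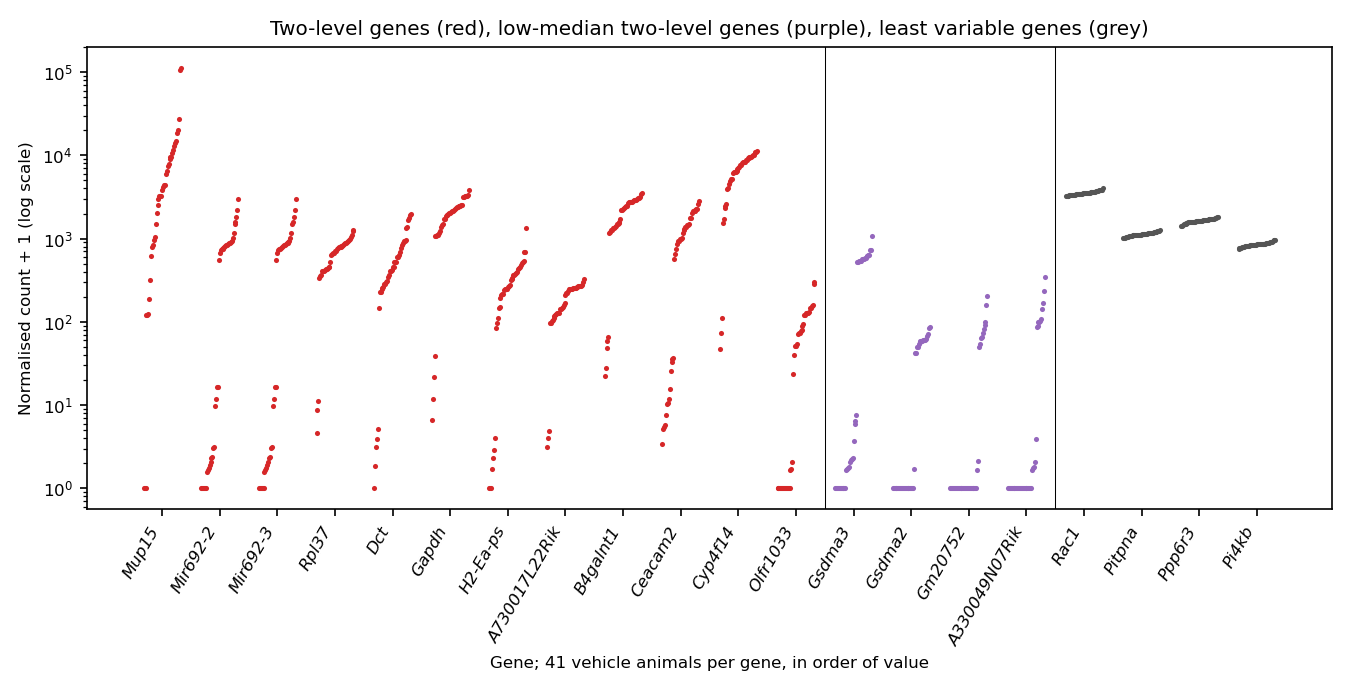
Normalised count + 1 on a log axis for 20 genes, with 41 vehicle animals per gene drawn in order of value. Red marks the 12 two-level genes with the widest gaps, purple the 4 low-median genes with the widest gaps and grey the 4 genes of lowest SD. Mup15 shows 3 animals at 0 far below the rest, and Rac1 stays between 3212 and 4097.

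Some genes had low counts in most livers and so fall below the median of 50. Among 1063 genes with a median under 50 and at least 3 animals at 50 or more, 113 met the same gap rule and 73 of them were on/off. Some of the 73 met it by a step of about 1 count, such as Adra1d from 0 to 1.13 and Sntg1 from 0 to 1.14. With a pseudocount of 10, 55 low-median genes met the rule. Gsdma3 (chr11:98626360-98638226), a pore-forming gasdermin best known from skin, was at 6.54 or less in 24 animals and at 519.6 to 1066 in 17. Its neighbour Gsdma2 was at 0.727 or less in the same 24 animals and at 41.2 to 86.6 in the same 17. Ces2h, a carboxylesterase, was at 27.1 or less in 29 animals and at 511 to 2088 in 12. Miox, which opens the ring of inositol and is best known from kidney, was at 63.9 or less in 34 animals and at 662 to 842 in 7. Rpl21, a ribosomal protein gene with 16.9% of its words shared, had 22 animals at 44.2 or less and 19 at 441 or more, and here too a low count may not be read as absence of the transcript. The uncharacterised Gm20752, A330049N07Rik and Gm8016 had 10, 10 and 19 high animals.

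Some neighbouring two-level genes split the animals alike. Of 187 two-level genes of either kind with a position, 103 had another within 2000000 bp, giving 126 pairs. No share for other genes was taken at that distance. Within 500000 bp, 36.1% of 285 genes with an SD of at least 1 had another of them, against 29.1% of the same number of genes of lowest SD. In 5 of the 126 pairs all 41 animals lay on the same side for both genes, and in 0 pairs on opposite sides. The 5 were C1s2 with C1rb, Gsdma3 with Gsdma2, Mup15 with Mup10, Gm8909 with H2-Q2, and the methyltransferase-like genes Mettl7a2 and Mettl7a3, where the same 22 animals were low. Full agreement needs equal numbers of low animals in both genes. Full opposition needs the low animals of a gene to match in number the high animals of its partner. Most pairs could reach neither, so the 2 counts cannot be set against each other. Prok1 and Kcna2 had 40 of 41 animals on opposite sides. The words shared within a pair differ: 44.4% of those of Saa2 occur in Saa1, 9.80% of those of Gsdma3 in Gsdma2 and 0.534% of those of Gstp3 in Gstp2. Where words are shared, the values of a pair are not independent. Gstp2 and Gstp3, glutathione transferases of the pi class, had 24 and 29 low animals, and all 24 were low in both. Amy2b and Amy2a5, pancreatic amylase entries, had 38 of 41 animals on the same side. Amy2b is annotated as a pseudogene, and 60.4% and 62.3% of the words of Amy2b and Amy2a5 occur in other genes. Saa1 and Saa2, acute phase apolipoproteins, had 40 of 41 on the same side, with 3 animals high in both.

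**Figure D3:**
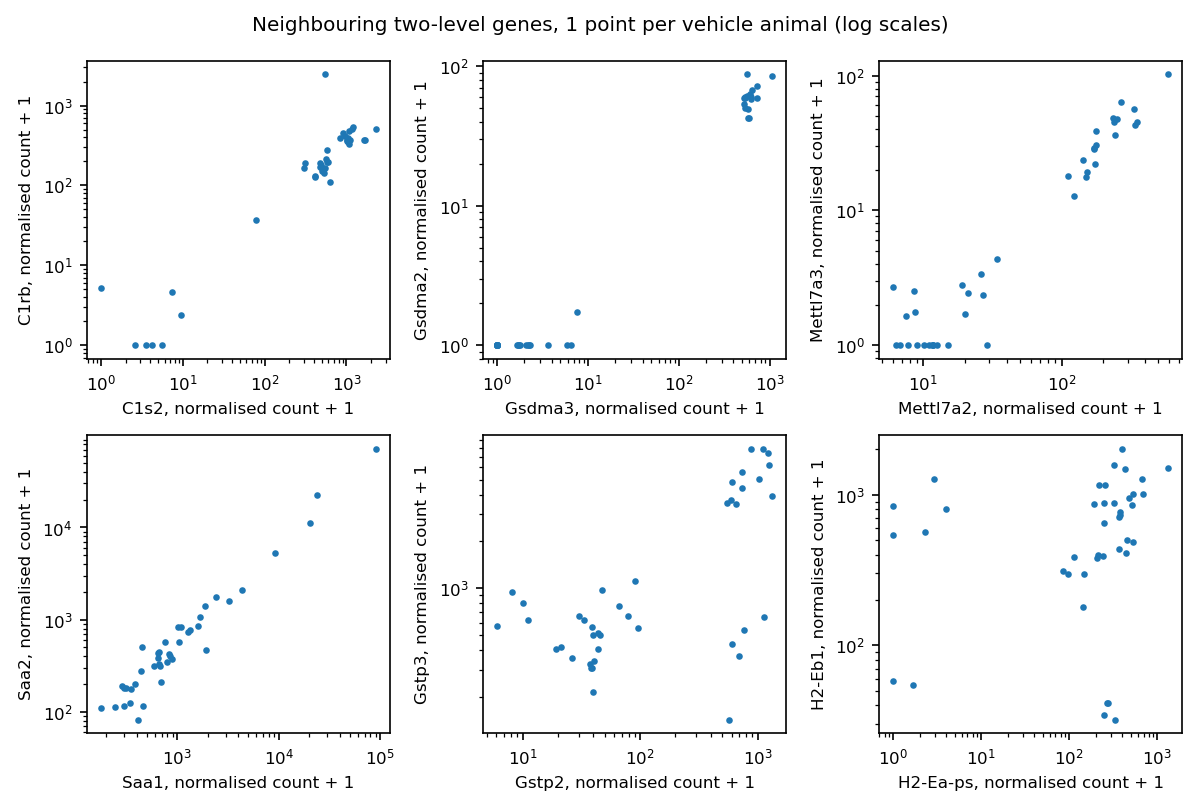
Each panel sets 1 gene of a neighbouring pair against the other, as normalised count + 1 on log axes, with 1 point for each of 41 vehicle animals. C1s2 with C1rb, Gsdma3 with Gsdma2 and Mettl7a2 with Mettl7a3 form 2 clouds each, while H2-Ea-ps and H2-Eb1 have low animals on each axis with 2 in common.

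Promoters were compared for 7 close neighbouring pairs with at least 36 of 41 animals on the same side. Both genes of a pair also had to have exactly 1 listed start. Gsdma3 with Gsdma2 and Mettl7a2 with Mettl7a3 did not meet the last condition and are missing. Of the 7 pairs, 4 are shown, chosen after their values were seen. Each line gives the 100 bases before the RefSeq start (GRCm38.p6), read 5′ to 3′ on the gene's strand, with a TATAAA that begins 40 to 20 bases before the start in capitals. Only the gene's strand was searched, and 1.99% of the 32851 promoters in the RefSeq table hold the motif there.
C1s2, chr6:124636086-124636185, minus strand: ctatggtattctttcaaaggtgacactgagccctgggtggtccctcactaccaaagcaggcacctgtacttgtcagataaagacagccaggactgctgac
C1rb, chr6:124570330-124570429, plus strand: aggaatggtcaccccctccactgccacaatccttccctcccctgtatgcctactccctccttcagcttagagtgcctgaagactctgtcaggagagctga
Amy2b, chr3:113156728-113156827, minus strand: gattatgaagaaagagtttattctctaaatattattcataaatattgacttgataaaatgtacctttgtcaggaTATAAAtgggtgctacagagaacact
Amy2a5, chr3:113258700-113258799, minus strand: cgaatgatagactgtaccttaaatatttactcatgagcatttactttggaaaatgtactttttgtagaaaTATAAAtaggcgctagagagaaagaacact
Saa1, chr7:46742981-46743080, minus strand: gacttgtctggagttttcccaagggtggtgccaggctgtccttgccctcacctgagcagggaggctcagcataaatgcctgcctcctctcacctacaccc
Saa2, chr7:46751733-46751832, plus strand: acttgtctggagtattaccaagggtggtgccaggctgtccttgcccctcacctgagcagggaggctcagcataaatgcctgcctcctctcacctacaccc
Gstp2, chr19:4042222-4042321, minus strand: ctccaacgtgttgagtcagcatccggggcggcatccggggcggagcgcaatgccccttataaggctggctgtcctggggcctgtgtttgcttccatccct
Gstp3, chr19:4059448-4059547, minus strand: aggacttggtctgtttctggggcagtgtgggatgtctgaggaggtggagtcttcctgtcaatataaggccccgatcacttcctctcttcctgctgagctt
Both amylase entries carry the motif, 26 and 30 bases before the start, and the other 6 shown do not have these letters in this window. Of the 3 pairs not shown, Gm8909 with 2410017I17Rik had 40 of 41 animals on the same side, Mup10 with Mup11 had 38 and Mup7 with Mup6 had 37. Such counts are high for any 2 genes with few animals on the smaller side. Gm8909 and 2410017I17Rik had 3 and 4 low animals, with 3 in common. Mup10 and Mup11 also had 3 and 4, with 2 in common. Mup7 and Mup6 had 3 high animals each and shared only 1. Among the genes of these 3 pairs, Gm8909 and Mup6 carry the motif, 31 and 27 bases before the start, and their partners do not. Set side by side without gaps, the Saa2 and Saa1 promoters had the same base at 70 of 100 positions, the 2 amylase and the 2 Gstp promoters at 32 each, and C1s2 and C1rb at 18. The 3 pairs not shown had 27, 36 and 19 positions alike, in the order given. An extra base in a promoter shifts every base beyond it, as in the first part of the Saa lines. The amylase motifs also start at different distances. Counts without gaps therefore understate likeness where promoters are shifted, and they do not rank the pairs. A comparison of promoters between the most and the least variable genes is void, since only 68.2% of the highest 5% had a promoter in the table.

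Acute phase proteins, which the liver secretes in inflammation, included genes with a few high animals. Saa2 ran from 80.9 to 71255 with a median of 426, and its 4 highest animals began at 5318, above 2091 in the others (SD 2.07). Saa1 ran from 175 to 90848 with a median of 761 (SD 1.89), and Lcn2, which binds bacterial iron carriers, from 6.87 to 12032 with a median of 326 (SD 1.81). Of 28 acute phase genes kept, 10 were in the highest 5%, and C-reactive protein, Crp, had the lowest SD at 0.26. The summed level of the group was highest in vehicle replicate 9, which also had the highest sum of 5 neutrophil markers at 1322 normalised counts, against 30.3 for the median animal. The same animal had the highest sum of Kupffer cell markers, at 18786 against 5541 for the median animal. It also had the highest sums of the interferon, complement and cholesterol synthesis lists. The part of those cells in the result was not tested.

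Interferon-induced genes gave 11 of 29 in the highest 5% and a median SD of 0.70. Mx2, an antiviral GTPase, ran from 37.5 to 1432 with a median of 204 (SD 1.31), and Ifit1, which binds viral RNA, from 24.3 to 429 with a median of 159 (SD 0.95). Stat2, a transcription factor of the pathway, lay between 998 and 1963 (SD 0.24). Iigp1, an immunity-related GTPase, had 2 animals far below the rest: vehicle replicate 40 was at 11.7 and the next lowest at 78.3, against a 10th percentile of 2217 and a median of 5996. Its SD was 1.77, or 1.17 without replicate 40.

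Clock genes gave 8 of 17 in the highest 5% and a median SD of 0.73. Dbp, a clock output factor, had the widest spread, from 7.69 to 3876 with a median of 75.9 (SD 2.47). Npas2 ran from 3.51 to 529.7 with a median of 254 (SD 1.54), Per3 from 31.5 to 1054 with a median of 97.6 (SD 1.20) and Per1 from 42.1 to 795 with a median of 217 (SD 1.15). Clock itself lay between 557 and 1766 (SD 0.33). The labels give no hour of dissection. Among immediate early genes, which respond within minutes to stress, Egr1 ran from 19.8 to 3285 with a median of 277 (SD 1.96), and 4 of 13 were in the highest 5%. Hspa1a, the inducible heat shock protein, ran from 4.52 to 354 with a median of 51.2 (SD 1.56).

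Drug-metabolising enzymes had many widely spread members. Of 37 Cyp2 and Cyp3 genes kept, 13 were in the highest 5% (median SD 0.67), and 12 of 43 conjugating enzymes were (median SD 0.52). Cyp3a16 was two-level, with 3 animals at 195 or less and the rest at 550.2 to 10808 (SD 1.67). Cyp2c55 ran from 20.8 to 5865 with a median of 87.8 (SD 1.66), and Cyp2b10, the classic target of the receptor CAR, from 611 to 78698 with a median of 2171 (SD 1.23). Gstp2 had 24 animals at 95.3 or less and 17 at 543 or more (SD 2.47), with 60.3% of its words shared, mostly with Gstp1. Gstz1, which also works in tyrosine breakdown, had the lowest SD among the conjugating enzymes at 0.18.

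Among genes of fatty acid oxidation and targets of the fatty acid receptor PPARalpha, 9 of 25 were in the highest 5% (7 to 9 under other settings). Cyp4a14, a fatty acid hydroxylase, ran from 279 to 74608 with a median of 10849.6 (SD 1.99), while Acadvl, an enzyme of beta-oxidation, stayed between 7710.3 and 13378 (SD 0.17). Cyp7a1, the rate-limiting enzyme of bile acid synthesis, ran from 105 to 7455 with a median of 1367 (SD 1.35). Pnpla3, a lipase-like protein of lipid droplets, ran from 30.9 to 2127 with a median of 275 (SD 1.45). Metallothionein Mt2, which binds zinc, ran from 63.9 to 28402 with a median of 2403 (SD 1.91), and Igfbp1, an insulin-suppressed plasma protein, from 124 to 6331 with a median of 1145 (SD 1.44). None of the 25 cholesterol synthesis genes was in the highest 5%. Mvd had the highest SD of them at 0.64 and Srebf2 the lowest at 0.19.

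**Figure D4:**
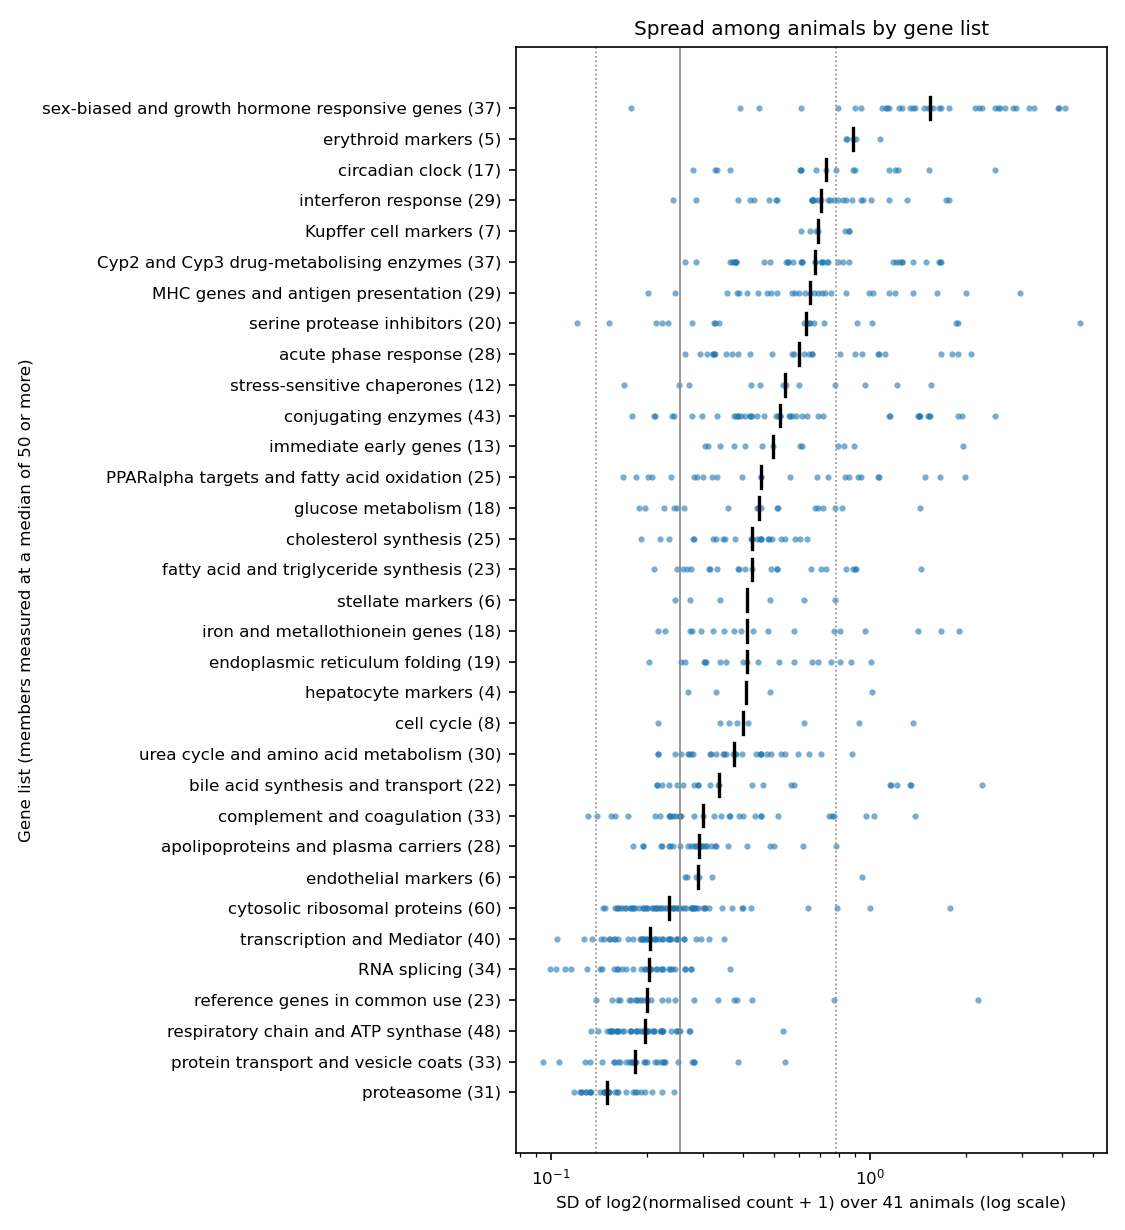
Each point is the SD of log2(normalised count + 1) of 1 gene over 41 vehicle animals, on a log axis, by gene list, with the number of members in brackets and the black bar at the list's median. Grey lines mark the 5th, 50th and 95th percentile of all 10757 genes. The sex-biased list has a median of 1.55 and the proteasome list one of 0.15.

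The least variable genes were found at the other end of the same scale. Rac1 (chr5:143503634-143528036), a small GTPase of the actin skeleton, had the lowest SD of all, 0.078, with animals from 3212 to 4097 around a median of 3499. Of its words, 51.3% are shared with other genes, mostly with the overlapping Daglb. Pitpna, which transfers phosphatidylinositol, lay between 1009 and 1282 (SD 0.081). Pi4kb, a phosphatidylinositol kinase, lay between 753 and 965 (SD 0.086). Ppp6r3, a phosphatase subunit, had an SD of 0.084 and Vapb, a tether of the endoplasmic reticulum, one of 0.088. Next came Cnot2 of the deadenylase complex (0.090), the GTPase Drg2 (0.091), the membrane insertase subunit Emc7 (0.091), the Golgi SNARE Gosr1 (0.092) and the chromatin reader Zmynd11 (0.093).

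The following 10 genes had SDs from 0.093 to 0.095. They were the deubiquitinase Bap1, the adaptor subunit Ap3s2, Ahcyl1, the endosomal sorting proteins Tsg101 and Pdcd6ip, the signalling adaptor Sh2b1, the late endosome GTPase Rab7, the ribosome maturation factor Sbds, the transcription elongation factor Rtf1 and Emc3. Rab7 lay between 3515 and 4601. The order at this end depends on the measure: by the median absolute deviation 7 of the 20 genes of lowest SD stayed among the lowest 20, and 10 did so with counting variance subtracted. The lowest 5% of genes had a median SD of 0.13, where counting error alone would give a median SD of 0.048. Their median level was 972 normalised counts, against 190 for the highest 5%.

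By list, 9 of 31 proteasome genes were in the lowest 5% and none in the highest 5%, with a median SD of 0.15. Psmd6, a subunit of the proteasome lid, lay between 1186 and 1635 (SD 0.12), and Psma5, a core subunit with the list's highest SD, between 554 and 1052 (SD 0.24). RNA splicing factors gave 5 of 34 in the lowest 5% (3 to 5 under other settings), vesicle coat and transport genes 4 of 33, transcription and Mediator genes 3 of 40 and the respiratory chain 1 of 48 (1 to 3). Hnrnpa2b1 had the lowest SD of the splicing factors at 0.100 and Taf6 of the transcription genes at 0.10. None of these 4 lists had a member in the highest 5%. Of 60 cytosolic ribosomal proteins, none was in the lowest 5% and 3 were in the highest (1 to 3 under other settings), with Rpl4 the steadiest at 0.15. The lists and members were chosen with earlier results of these data known, so the counts are descriptions.

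Markers of cell types varied to different degrees. The 4 hepatocyte markers had a median SD of 0.41, from albumin at 0.27 to Serpina1c at 1.01. All 5 erythroid markers were in the highest 5%, and Hbb-bs ran from 387 to 7560.3 with a median of 1597 (SD 0.84). Of 7 Kupffer cell markers kept, 3 were in the highest 5%, and Timd4, a receptor for dying cells, ran from 12.7 to 339 with a median of 103 (SD 0.86). Endothelial markers had a median SD of 0.29 and stellate cell markers one of 0.41. Cela1, an elastase, was the only 1 of 6 exocrine pancreas markers kept and ran from 49.1 to 2061 with a median of 696 (SD 1.28). The 6 markers together summed to a median of 697 and a highest of 2061, so the others added little to these values. Upk3b, the only 1 of 3 mesothelium markers kept, ran from 1.41 to 422 with a median of 58.2 (SD 1.59). In whole liver, fewer cells of a type and less RNA per cell cannot be told apart.

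The 7 single-library genes each owed a large part of their SD to 1 animal. Slc25a4, the adenine nucleotide carrier of muscle and heart, was at 7178 in vehicle replicate 8, the library with the muscle markers, and at 60.2 to 182 in the others (SD 1.01, or 0.33 without it). Orm1, an acute phase glycoprotein, was at 239.6 in vehicle replicate 39 and at 6003 or more elsewhere (SD 1.07, or 0.58). Dynlt1b, Erc2, Gm11837 and Zfp605 were each at 0 in 1 animal, a different one for each gene, with medians of 150.4, 101, 50 and 56.3. Together with Iigp1 these make up the class.

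Many of the most variable genes share sequence with relatives. At least 25% of the 31-base words of a gene occurred in another annotated gene for 97 of 285 genes with an SD of at least 1 and a position, for 37 of 81 two-level genes (45.7%), for 8.43% of the lowest 5% and for 10.4% of all genes. A total of 4 pairs of entries had identical values in every animal, Hbb-b2 with Hbb-bt, Hist1h2bq with Hist1h2br, Zfp966 with Zfp967 and the 2 Mir692 genes. The kit used does not mark strand, so reads of overlapping genes such as Abhd1 and Preb, which share 75.9% of the words of Abhd1, cannot be assigned to one of them.

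Of the 3 leading axes of variation over all kept genes, the first held 9.33% of the variance. It was led by Serpina4-ps1, a two-level serpin entry 59658 bp from Serpina3c that ran from 1.28 to 1738 with a median of 139 (SD 2.76), followed by the Mir692 entries, Mup15 and Hsd3b5. The second held 5.98%, led by Dbp, Saa2, the Mir692 entries and Lcn2, and the third 5.53%, led by Mup15, Mup10, Mup1, Mup16 and Mup9. Over 41 animals the first axis correlated with the log2 total count (Pearson r 0.44, permutation p 0.0037, adjusted over 3 axes 0.011; Spearman rho 0.42, permutation p 0.0075; r 0.34 without the 2 farthest animals). The third axis did so with r -0.39 (permutation p 0.014, adjusted 0.021; rho -0.48, permutation p 0.0015; r -0.59 without the 2 farthest). For the second axis r was 0.044 (permutation p 0.79; rho 0.076, permutation p 0.64; r -0.059 without the 2 farthest). These values say how far depth moves with an axis, and its part in single genes was not tested.

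Coat colour, the one bodily trait the labels give for each animal, went with few differences. By edgeR's quasi-likelihood test with animal-number run as a covariate, 2 of 12398 genes, 0.0161%, differed between the 3 coats at an adjusted p under 0.05, and 1016 did so before adjustment. Hsp90ab1, a constitutive chaperone, ran from 14066 to 25046 (median 20982) in agouti, 20672 to 34246 (median 27070) in black and 24361 to 34029 (median 24935) in white animals. Its log2 fold change against agouti was 0.40 in black and 0.42 in white (edgeR adjusted p 0.045). Irf1, an interferon-pathway transcription factor, was 0.61 higher on the log2 scale in black than in agouti and 0.12 higher in white (edgeR adjusted p 0.045), with medians of 832 in agouti, 1223 in black and 764 in white. In both genes the coat groups overlapped. The next 3 genes by p were the RNA-binding protein gene Rbm34, the co-chaperone gene Stip1 and the carboxylesterase gene Ces2c, each with an edgeR adjusted p of 0.199. Ces2c had medians of 398 in agouti, 1042 in black and 525 in white animals, and an adjusted p of 0.0029 by DESeq2's likelihood ratio test and 0.020 by limma-voom. Those 2 tools also called Rbm34 and Stip1. Neither Hsp90ab1 nor Irf1 is among the 295 genes with an SD of at least 1, of which edgeR called 0. Of these, 14 of 284 tested had an unadjusted edgeR p under 0.05, or 4.93%, against 8.11% of all genes kept. DESeq2's likelihood ratio test called 23 genes and limma-voom 12, but edgeR called none without the 5 libraries of lowest total.

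The animals' numbers fall into 8 runs, spaced 50 apart, of 3 to 6 vehicle animals. With coat colour as a covariate, edgeR called 7 genes, 0.0565%, between runs, and 1071 at an unadjusted p under 0.05. The 7 were Ankrd23, Pygm, Slc25a4, Hk2, Des, Cryab and Slc35e3, most of them known from muscle. Ankrd23 was at 7576 in vehicle replicate 8 and at 76.4 or less in the others, and Pygm, muscle glycogen phosphorylase, at 2990 against 56.4 or less. Without vehicle replicate 8 edgeR called 0 genes between runs. Of the 295 genes with an SD of at least 1, 38 of 284 tested had an unadjusted p under 0.05 for run, or 13.4%, against 8.15% of all genes kept. The letter in the library names gave 0 calls by edgeR (0%), with 1578 genes at an unadjusted p under 0.05, 515 called by DESeq2's likelihood ratio test and 0 by limma-voom. Its 5 genes of lowest p, Wac, Kbtbd11, Myo1e, Sh3bgrl and Mtdh, each had an edgeR adjusted p of 0.123. The labels do not say what a run or a letter stands for.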

How the data were processed

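Liver RNA of 41 vehicle mice was sequenced from TruSeq v2 libraries, per the labels' protocols. The authors deposited estimated counts per gene and normalised counts, which here equal the rounded estimated count divided by 1 factor per animal, a signal with no length correction. The submitters' processing notes name STAR, Partek, DESeq2 and the build mm10. Versions, annotation, strand setting and the handling of reads with several matches were not stated there. Library totals of 13064928 to 41360187 leave a median counting SD of 0.070.

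SD, gaps and ranks were computed with Python 3.11.15 (numpy 2.4.6, pandas 2.3.3) after adding a pseudocount of 1. Coat colour, run and library letter were tested with edgeR 4.0.16 (TMM, quasi-likelihood F test, Benjamini-Hochberg over 12398 genes) on rounded estimated counts, with DESeq2 1.42.0 and limma 3.58.1 as alternatives. Scripts were tested on simulated data. Positions come from GENCODE M21 (GRCm38), with 97.9% of symbols matched, and 31-base words from its transcripts. Genes were named from the 20 of highest and lowest SD, up to 12 two-level and 8 low-median genes of widest gap, extremes of each list, the 5 of lowest p for each label, nearest partners by Spearman rho and leading loadings. Other genes named were chosen after their values were seen. The members and lists were chosen with earlier results of these data known. The labels do not pair animals.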

Additional observations from a re-analysis of the deposited data

Results flagged for a closer look

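Among the genes of lowest p for coat colour and run, every label group of 4 to 10 animals was searched for an animal far from the rest of its group, where chance gives about 1 in 20 such groups. That rate does not apply to the run genes: they were taken for their p for run, and edgeR calls none of them without vehicle replicate 8. In 5 of the 45 groups the farthest animal's gap, as a share of the group's range on the log2 scale, was above the critical value for its size. Vehicle replicate 8 was the high animal of the second run for Ankrd23 (0.837 of the range, 7576 against a run median of 40.6), for Pygm (0.864, 2990 against 43.1), for Slc25a4 (0.845, 7178 against 132) and for Des (0.673, 4486 against 140.4). Des, the intermediate filament of muscle and stellate cells, also had vehicle replicate 39 as the high animal of the eighth run (0.826 of the range), at 155 against a run median of 113. The muscle markers of vehicle replicate 8 stand beside these values, and their part in the result was not tested.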

How the results depend on the processing

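The median SD over genes was 0.246 with a pseudocount of 10, 0.274 with a median of at least 20, 0.240 with at least 100, 0.348 with any median above 0, 0.244 by the median absolute deviation, 0.239 with counting variance subtracted and 0.246 without the 5 libraries of lowest total. Genes with an SD of at least 1 numbered 471 with a median of at least 20 and 1511 with any median above 0, and graded genes 332 and 1145. Two-level genes numbered 133 with a median of at least 20, 348 with any median above 0, 133 at a gap of 0.75, 46 at 1.5, 136 with 2 animals a side and 52 with 5. Low-median two-level genes fell to 55 with a pseudocount of 10 and to 62 at a gap of 1.5. Single-library genes numbered 1 with a pseudocount of 10, 53 with any median above 0, 11 with a limit of 25% of the SD in place of 33.3%, and 2 with a limit of 50%. The other planned settings, among them TMM scaling, removal of run or coat means and leaving out vehicle replicates 8, 9, 15 and 37 together, kept these counts within 1.5 times. With those 4 animals out, 18 of the 20 genes of highest SD, 12 of the 20 of lowest SD and 74 of the 85 two-level genes were kept. By the median absolute deviation 12 of the 20 highest and 7 of the 20 lowest were kept, with counting variance subtracted 19 and 10, with run means removed 18 and 12, without the 5 libraries of lowest total 16 and 13, and without vehicle replicate 15 alone 19 and 12. For the 40 genes of highest and lowest SD, 69 of 2091 SDs under all alternatives moved by more than their jackknife error. Most of the 2091 come from fits that leave out 1 animal. The jackknife error is built from those same fits, so they could hardly move, and the share is not a measure of stability. By the median absolute deviation the SD was 1.61 for Ceacam2, 1.29 for Mup10, 1.27 for C1s2, 1.38 for C1rb and 1.17 for H2-Ea-ps, and with a pseudocount of 10 it was 2.19 for Gm13305 and 1.79 for Olfr1033.

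Leaving out each animal in turn gave a median SD of 0.251 to 0.255, 287 to 300 genes with an SD of at least 1, 3070 to 3247 with at most 0.2, 81 to 93 two-level, 106 to 118 low-median two-level, 5 to 8 single-library and 196 to 209 graded genes. The list counts, recomputed under settings chosen after seeing the data, put 32 or 33 of the 37 sex-biased genes in the highest 5%, 3 to 6 of the complement and coagulation genes, 1 to 3 of the ribosomal proteins and 10 to 14 of the interferon genes. In the lowest 5% they put 3 to 5 RNA splicing genes, 1 to 3 of the respiratory chain, 1 or 2 serpins and 9 proteasome genes.

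Calls by label were unstable. For coat colour, DESeq2's likelihood ratio test called 23 genes, limma-voom 12, and 0 were called without the 5 libraries of lowest total, with log2 total count as covariate, and with coat colour alone. Leaving out 1 animal called 0 to 3 genes, and 0 in 20 of 41 fits. For run, 4 genes were called with DESeq2 size factors in edgeR, 147 with no filter on low counts, 117 by DESeq2's likelihood ratio test, 2 by limma-voom, 13 without the 5 libraries of lowest total, 3 with log2 total count as covariate and 18 with run alone. Leaving out 1 animal called 0 to 14 genes, 0 without vehicle replicate 8 and 3 in 29 of 41 fits. For the library letter, 15 genes were called with no filter on low counts and 515 by DESeq2's likelihood ratio test, and leaving out 1 animal called 0 to 3. The cause was not tested. No paired analysis was possible because the labels give the animals no shared replicate numbers. Depth limits the lowest genes most: the median counting SD was 0.18 for medians of 50 to 100 and 0.020 above 3000.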
